A study of Mus musculus with 4 samples.

Results

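Genes of the motile cilium were examined in cells of the regenerated mouse olfactory epithelium with and without lamin B1. The genes were a list of 46 that build or switch on the beating cilium, and they were picked by name: transcription regulators, tektins, dynein arm subunits and their assembly factors, the molecular ruler and nexin link, radial spokes, the central pair and 5 other axonemal proteins. Of these, 31 had a row under the listed symbol among the 23337 gene symbols of the count tables, and all 31 were abundant enough to be tested among 15438 genes. The other 15 were dropped by that rule. For 13 of them a row was found under an older symbol, and those are described separately. For Dnah3 and Dnah12 no row was found.

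The axoneme of a motile cilium is a ring of microtubule doublets around a central pair. Dynein arms on the doublets slide them against each other, while nexin links, radial spokes and the central pair turn that sliding into a beat. Multiciliated cells of the airway, including the respiratory epithelium next to the olfactory epithelium, carry many such cilia. Olfactory sensory neurons also carry cilia with a central pair, but these lack dynein arms, do not beat and hold the odorant detection machinery.

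RNA-seq was performed on sorted fluorescent cells from 4 mice of mixed strain background, 1 mouse per sample, with 2 controls (Lmnb1+/-, heterozygous for the lamin B1 gene) and 2 mutants (Lmnb1-/-). All 4 mice had a Cre transgene under a keratin 5 promoter, so that the tdTomato reporter marked horizontal basal cells, the reserve stem cells of this tissue, and their descendants. All had received methimazole at 50 mg/kg, which strips the epithelium, and had recovered for 4 weeks. The 2 experimental groups each held 1 control and 1 mutant from the same parents, with the same sex, age, treatment and preparation. Per the series' design text the groups differed in parents, sex, age and treatment. How treatment differed and the age of each mouse are not given. Samples are called control 1, mutant 1, control 2 and mutant 2 after their experimental group, and where the values of a genotype are given as a pair, group 1 comes first. Because the mice were heterozygous or null, no sample had 2 intact Lmnb1 copies, and because the allele was removed by Cre, a share of sorted mutant cells could still hold lamin B1.

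Reads assigned to genes numbered 14833396 to 23704638 per sample. The targeted gene Lmnb1 had 20.1 CPM in control 1 and 14.7 in its littermate mutant, and 18.5 and 10.045 in the pair of group 2, where CPM is the gene count scaled to a library total of 1000000. Only exon 2 was removed, so counts over the whole gene are an incomplete check of the genotype (log2 fold change -0.72, SE 0.31, adjusted p = 0.195). The paper itself reports depleted Lmnb1 transcript by PCR in sorted mutant cells. It also reports that most tdTomato-marked cells of mutant tissue lacked lamin B1 by antibody staining. Mutant 1 stood apart, with 1603 gene symbols at 0 counts compared with 5173 to 6053 in the other samples. Reads outside genes made up 39.4% of its uniquely aligned reads compared with 22.1 to 24.9%, and 3742 genes at 0 elsewhere carried 3.55 counts per kb of exon in it. Taken as an even background, this would make up 3.61% of the mutant 1 counts of the median gene of the 31, with a range of 0.23 to 21.4%.

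Motile cilium genes that changed were lower in the mutants. In a model of genotype and experimental group, 6 of the 31 genes fell past the threshold (an adjusted p under 0.05 over all genes tested) and 0 rose. These were Foxj1, Tekt1, Ccdc40, Ccdc65, Rsph9 and Zmynd10, and they made up 19.4% of the 31, where 4.30% of all tested genes fell and 1.28% rose. The median log2 fold change of the 31 was -0.65, compared with -0.01 over all tested genes. Of the 31, 27 were negative, where 51.1% of all tested genes were. A further 11 genes were lower at an unadjusted p under 0.05, making 17 in all, and 0 were higher. Of all 15438 tested genes, 1485 were lower at that level. With the 13 listed genes found under an older symbol added, 8 of 44 fell (18.2%) and 0 rose. Of those 44, 33 were negative, and their median log2 fold change was -0.54. The 13 alone had a median of 0.17. Without the term for experimental group 0 of the 31 passed. With 1 sample left out only genotype could be fitted, so those fits do not check the calls apart from that term. In a bulk sample, fewer cells of a type and less RNA per cell cannot be told apart.

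The plot of fitted fold changes groups the genes by their place in the axoneme. Genes that fell were found among regulators (1 of 3), tektins (1 of 4), assembly factors (1 of 2), the ruler and nexin link (2 of 4) and radial spokes (1 of 3). No gene passed the threshold among the 4 outer arm, 3 inner arm, 4 central pair and 4 other axonemal genes. The medians of these last classes were -0.77, -0.31, 0.02 and -0.57 on the log2 scale, so the outer arm median lay below that of the regulators (-0.53) and the ruler and nexin link (-0.74), which held calls. Whether the classes differed was not tested. In classes this small, 0 calls lie near the 4.30% of all tested genes that fell and do not set a class apart. The outer arm gene Dnah11, found under an older symbol, did pass and is described below.

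**Figure D1:**
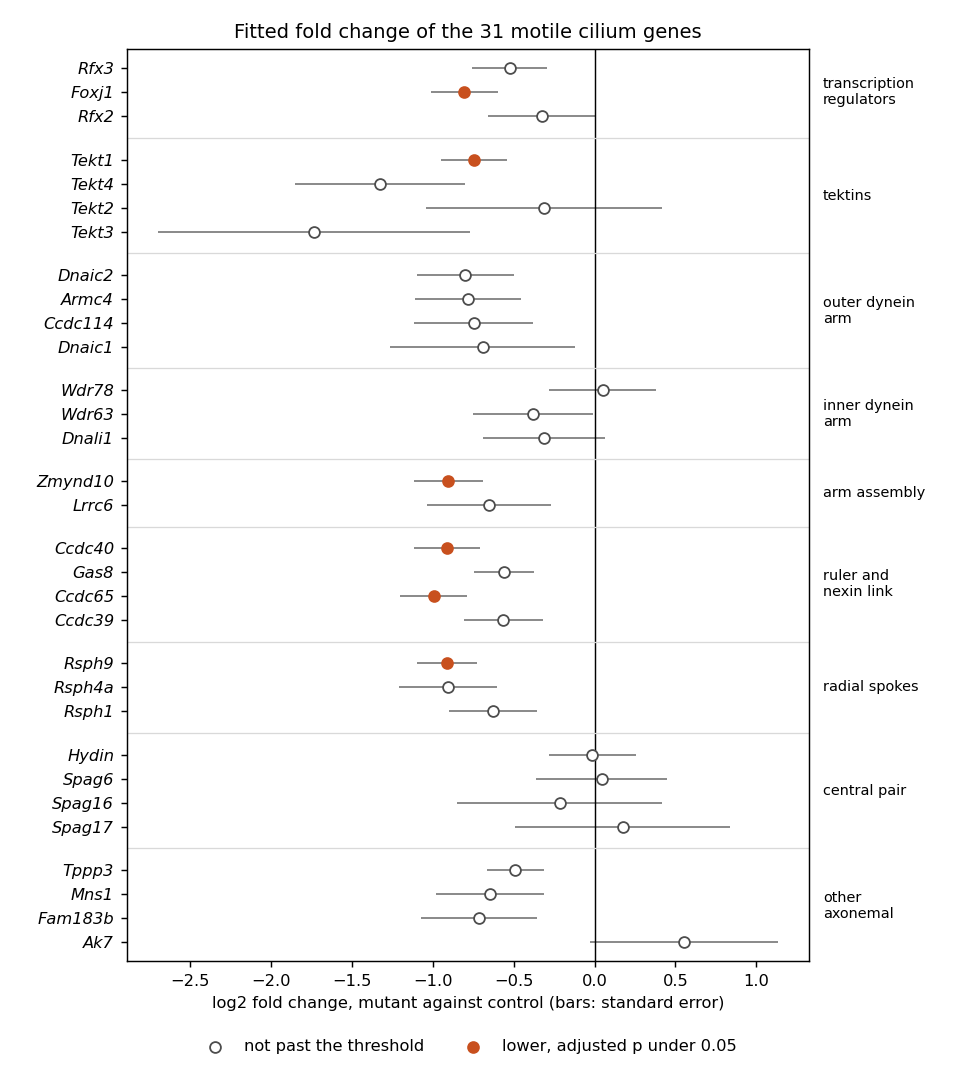
Log2 fold change of mutant against control for the 31 motile cilium genes (points) with its standard error (bars), grouped by role. Filled points are the 6 genes past the threshold, between -0.996 and -0.74, and the 4 central pair genes lie between -0.22 and 0.18.

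Foxj1, the forkhead factor that switches on motile cilium genes, lies at chr11:116330704-116335399 on the minus strand (mm10). In group 1 it was measured at 162 CPM in the control and 126 in the mutant, and in group 2 at 110 and 49.7. The mutant was below its own control in both experimental groups, but mutant 1 was above control 2. The log2 fold change was -0.80 (SE 0.21, adjusted p = 0.0046), from a log2 ratio of -0.46 in group 1 and -1.16 in group 2. Rfx3, a partner factor that binds the X-box of cilium genes, was measured at 133 and 225 CPM in the controls and 134 and 116 in the mutants. Almost all of its difference lay in group 2, where the log2 ratio was -0.97 compared with -0.09 in group 1 (adjusted p = 0.219). Rfx2, a relative of Rfx3, had 15.8 and 14.5 CPM in the controls and 15.4 and 10.2 in the mutants (log2 fold change -0.33, SE 0.34, adjusted p = 0.74).

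The tektins are filament proteins inside the doublet microtubules. Tekt1 (chr11:72344722-72362442) went from 68.0 CPM in the control to 48.2 in the mutant of group 1, and from 21.7 to 11.6 in group 2. Its level differed more between experimental groups than between genotypes, with a log2 fold change of -1.81 for group 2 against group 1 and -0.74 (SE 0.20, adjusted p = 0.0090) for mutant against control. This call was lost in DESeq2 (adjusted p = 0.068). Tekt4 was measured at 13.5 and 4.44 CPM in the controls and 8.99 and 1.01 in the mutants, and Tekt3 at 2.995 and 1.64 in the controls and 1.31 and 0.34 in the mutants. Their log2 fold changes, -1.33 (SE 0.53) for Tekt4 and -1.73 (SE 0.97) for Tekt3, were larger than that of Tekt1 but rested on as few as 15 and 5 counts in mutant 2 and did not pass. Tekt2 had 1.81 to 4.49 CPM with no constant order, and shares 20.8% of its exon length with a transcript on the opposite strand.

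The outer dynein arm gives the cilium most of its power. Its intermediate chain gene Dnaic2 had 27.6 and 16.8 CPM in the controls and 20.8 and 7.82 in the mutants (log2 fold change -0.80, SE 0.30, adjusted p = 0.107). Dnaic1, the other intermediate chain, and the docking genes Ccdc114 and Armc4 had log2 fold changes of -0.69, -0.75 and -0.78, and none of the 4 passed the threshold. For the inner arm, the intermediate chain gene Wdr78 had 15.6 and 26.2 CPM in the controls and 27.3 and 17.3 in the mutants. It was higher in mutant 1 than in control 1 and lower in mutant 2 than in control 2, and the fitted log2 fold change was 0.05 (SE 0.33). Wdr63, another intermediate chain, and Dnali1, a light intermediate chain, were at -0.38 and -0.31.

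Dynein arms are put together in the cytoplasm before they enter the cilium, with the help of Zmynd10 and Lrrc6. Zmynd10 (chr9:107547298-107551319) went from 57.3 CPM in the control to 36.5 in the mutant of group 1, and from 25.4 to 12.1 in group 2. It fell with a log2 fold change of -0.90 (SE 0.22, adjusted p = 0.0016), and 10.1% of its exon length is shared with an antisense transcript. Lrrc6 had 12.0 and 13.0 CPM in the controls and 8.22 and 8.29 in the mutants. Here both mutants lay below both controls, but with 123 to 285 counts per sample the change of -0.65 (SE 0.39) did not pass.

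Ccdc39 and Ccdc40 form the ruler that sets the repeat length of the axoneme, and Ccdc65 and Gas8 belong to the nexin link. Ccdc40 (chr11:119228572-119265238) had 153 and 94.5 CPM in the controls and 110 and 39.9 in the mutants, and fell by 0.91 on the log2 scale (SE 0.21, adjusted p = 0.00082). Ccdc65 (chr15:98708207-98723336) had 58.2 and 29.8 CPM in the controls and 32.8 and 14.3 in the mutants, and had the lowest fold change of the 6, at -0.996 (SE 0.21, adjusted p = 0.00016). Its log2 ratios in the groups, -0.92 and -1.08, were closer to each other than those of Ccdc40, -0.57 and -1.26. Gas8 had 51.2 and 40.7 CPM in the controls and 36.1 and 28.7 in the mutants. Both mutants lay below both controls and the log2 ratios were -0.60 and -0.52, but the change of -0.56 (SE 0.19) narrowly missed the threshold (adjusted p = 0.0506). It passed when genes were required to exceed 1 CPM in all 4 samples (adjusted p = 0.0488). Ccdc39 had 26.0 and 33.3 CPM in the controls and 17.7 and 24.1 in the mutants (log2 fold change -0.57), and shares 16.9% of its exon length with Ttc14 on the opposite strand.

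Radial spokes reach from the doublets towards the central pair, and Rsph1, Rsph4a and Rsph9 encode proteins of the spoke head. Rsph9 (chr17:46122035-46144216) went from 170 CPM in the control to 110 in the mutant of group 1, and from 65.9 to 30.6 in group 2. The fitted change was -0.91 on the log2 scale (SE 0.19), with the smallest adjusted p of the 31 genes (0.00013). Rsph4a had 25.1 and 31.9 CPM in the controls and 21.0 and 11.6 in the mutants, with no overlap between genotypes (log2 fold change -0.91, SE 0.30, adjusted p = 0.0598). Rsph1 was at -0.63 (SE 0.27, adjusted p = 0.186).

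Fold changes of the 4 central pair genes were near 0. Hydin, which encodes a large protein of a central pair projection, had 22.4 and 18.6 CPM in the controls and 25.4 and 17.4 in the mutants (log2 fold change -0.01, SE 0.27). For Spag17 the counts were 84 and 55 in the controls and 152 and 26 in the mutants, and the log2 ratio was 0.84 in group 1 and -0.55 in group 2. Spag6 and Spag16 had log2 fold changes of 0.04 (SE 0.41) and -0.22 (SE 0.63). The even background of mutant 1 would make up 4.54 to 20.9% of the mutant 1 counts of these 4 genes, and after it was subtracted their median log2 fold change was -0.0034. Of the remaining genes, the tubulin-binding Tppp3 had 77.4 and 32.4 CPM in the controls and 64.7 and 21.0 in the mutants (log2 fold change -0.49, SE 0.18, adjusted p = 0.0866). Ak7, an adenylate kinase of the axoneme, was the gene with both ratios above 0, at 0.87 and 0.20 (log2 fold change 0.55, SE 0.58), and it had 55 to 170 counts per sample.

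**Figure D2:**
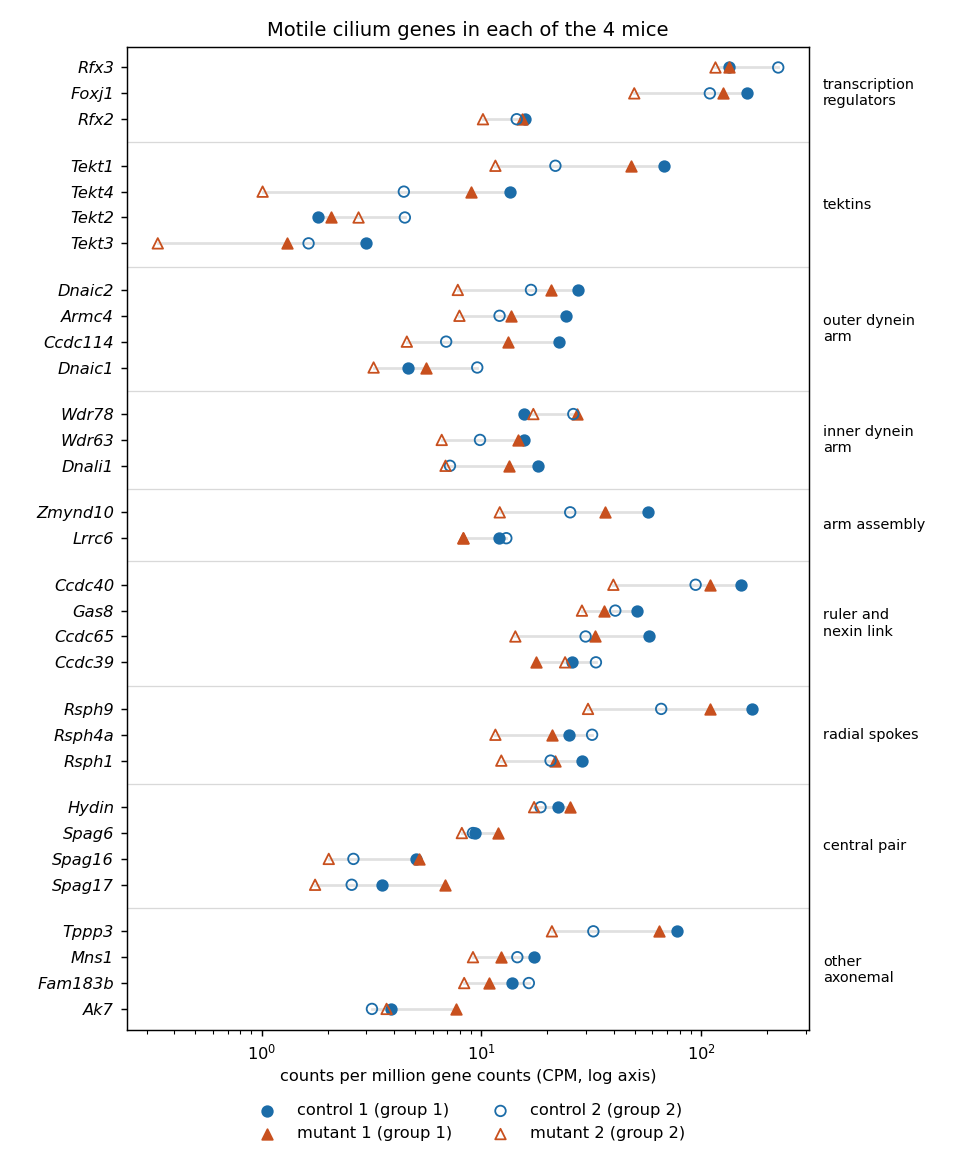
CPM of the 31 motile cilium genes (log axis) in each mouse, with circles for controls, triangles for mutants, filled for experimental group 1 and open for group 2. Mutant 2 was the lowest sample for 26 of the 31 genes and control 1 the highest for 18.

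The promoters of the genes that fell were inspected because the RFX factors and Foxj1 act through short motifs near the start of cilium genes. RefSeq windows of 300 bases (GRCm38.p6, 250 before to 50 after the start) were at hand for 24 of the 31 genes. The RFX half-site GTTGCCA, on either strand, was found in 5 of their 27 windows (18.5%), those of Gas8, Hydin, Mns1, Tekt1 and Zmynd10, and in 4.38% of all 32851 windows. Among the listed genes found under an older symbol, 12 had a window, and Dnah10, Dnah7b, Drc1, Mcidas and Pifo held the half-site. The longer form GTTNCCATGG was found for Dnali1 and Zmynd10, and in 1.18% of all windows. The full X-box palindrome was found with a gap of 1 (GTTNCCNGGNAAC) for Fam183b and with a gap of 2 (GTTNCCNNGGNAAC) or 3 (GTTNCCNNNGGNAAC) for none of the 24, and these 3 forms were in 0.271, 0.451 and 0.0609% of all windows. A palindrome with A in its gap beside GTTGCC also holds the half-site. The forkhead motif TGTTTAC was found for Ak7 and Tekt3 (3.65% of all windows) and TGTTTGT for none (6.61%). A match is a description of letters and was not tested as a binding site.

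Shown 5′ to 3′ are the windows of the genes that fell with a match, Tekt1 (chr11:72361833-72362132, minus strand) and Zmynd10 (chr9:107547054-107547353, plus strand), and of Rsph9 (chr17:46144151-46144450, minus strand), which had no match to these motifs. Capitals mark matches. In Tekt1 the half-site begins 15 bases before the start, and a second Tekt1 window had no match. In Zmynd10 the longer form begins at the first base of the transcript, and the half-site follows on the other strand at base 39.
Tekt1: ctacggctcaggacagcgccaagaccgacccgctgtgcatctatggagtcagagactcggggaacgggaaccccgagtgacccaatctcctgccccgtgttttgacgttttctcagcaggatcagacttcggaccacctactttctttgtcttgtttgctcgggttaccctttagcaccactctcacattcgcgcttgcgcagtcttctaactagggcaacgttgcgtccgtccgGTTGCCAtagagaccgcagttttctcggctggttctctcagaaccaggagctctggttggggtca
Zmynd10: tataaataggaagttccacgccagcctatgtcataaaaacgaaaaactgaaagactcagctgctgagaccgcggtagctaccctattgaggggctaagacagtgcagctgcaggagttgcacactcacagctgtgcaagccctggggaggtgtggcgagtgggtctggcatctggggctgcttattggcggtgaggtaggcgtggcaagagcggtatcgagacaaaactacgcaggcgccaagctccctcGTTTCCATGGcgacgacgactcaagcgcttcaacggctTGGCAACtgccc
Rsph9: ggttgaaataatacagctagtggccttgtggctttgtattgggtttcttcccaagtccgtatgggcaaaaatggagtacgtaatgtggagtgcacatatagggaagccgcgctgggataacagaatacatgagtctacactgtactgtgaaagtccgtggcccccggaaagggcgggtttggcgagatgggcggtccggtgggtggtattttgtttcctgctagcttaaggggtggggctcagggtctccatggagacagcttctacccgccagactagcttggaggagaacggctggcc

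The windows of Ccdc40 and Ccdc65 also held none of these exact strings. Among the 5 genes that fell and had a window, 2 held such a string and 3 did not. Looser forms of the motifs were not searched, so a window without a match is not shown to lack a site.

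Levels were compared between genes only per exon length. Rsph9 was the highest of the 31, with a mean of 58.9 CPM per kb, followed by Foxj1 (42.6), Tppp3 (26.4), Tekt1 (23.0) and Fam183b (21.8), compared with a median of 5.58 over all tested genes. The lowest were Spag17 (0.43), Spag16 (0.55), Tekt3 (0.90), Ak7 (1.10) and Hydin (1.16). The genes that fell were therefore among the better measured. Their mean CPM was 32.8 to 112, and only 3 other genes of the list, Gas8, Tppp3 and Rfx3, had a mean CPM above the lowest of them. SEs were 0.19 to 0.22 for the 6 and 0.18 to 0.97 for the other 25. A gene of low count that missed the threshold is thus not shown to have kept its level.

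**Figure D3:**
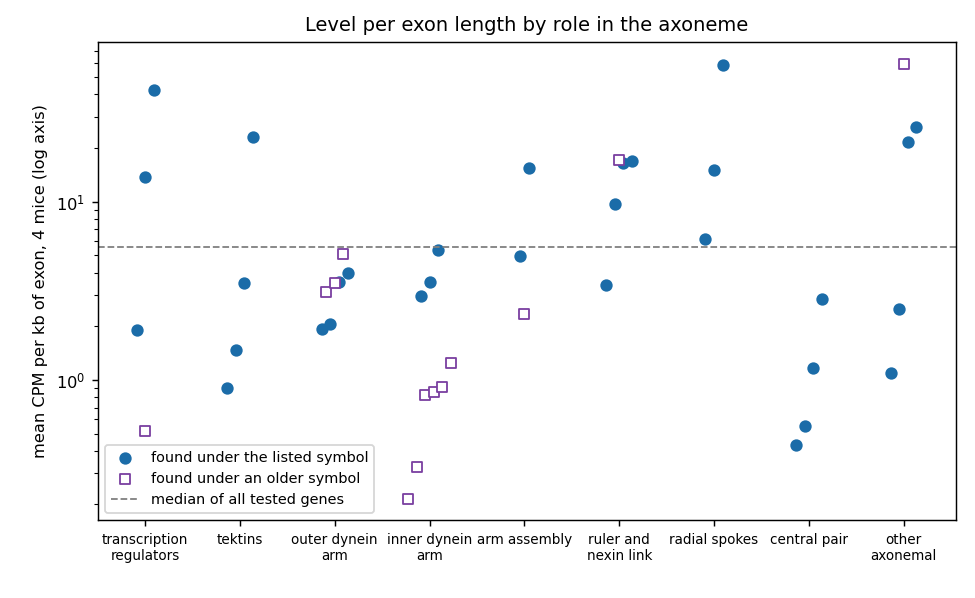
Mean CPM per kb of exon over the 4 mice (log axis) by role, with circles for genes found under the listed symbol and squares for those found under an older symbol. The dashed line is the median of all tested genes (5.58). Central pair genes and dynein heavy chains lie below it.

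The experimental groups were compared next, since the level of these genes also differed between the 2 controls. In the same model, 12 of the 31 genes were lower in experimental group 2 (38.7%, where 14.0% of all tested genes were lower) and 0 were higher (17.7% of all tested genes). The median log2 difference of group 2 against group 1 was -0.87, larger than the genotype median of -0.65. Summed over the 31 genes, the level went from 1260 CPM in the control to 983 in the mutant of group 1, and from 925 to 499.8 in group 2. Mutant 1 thus lay above control 2, and all 6 genes that fell overlapped in this way. The genes without overlap, with both mutants below both controls, were the 7 genes Tekt3, Lrrc6, Ccdc39, Gas8, Rsph4a, Mns1 and Fam183b, or 22.6% of the list, where this held for 10.6% of all tested genes. None of these 7 passed the threshold (adjusted p 0.0506 to 0.428), and for 0 genes did both mutants lie above both controls (15.2% of all tested genes). Fam183b, an axonemal protein gene, had 13.8 and 16.5 CPM in the controls and 10.8 and 8.36 in the mutants (log2 fold change -0.72, SE 0.36). Mns1, which encodes a protein inside the doublets, had 17.5 and 14.6 CPM in the controls and 12.2 and 9.17 in the mutants (log2 fold change -0.65, SE 0.34). It shares 53.0% of its exon length with Tex9 on the opposite strand, so its counts are uncertain.

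Within the groups, the mutant was below its own control in both groups for 24 of the 31 genes (77.4%, where 32.9% of all tested genes were), above it in both for 1 (29.8% of all tested genes), and opposite for 6. The ratios were lower in group 2 than in group 1 for 26 genes, with medians of -0.50 in group 1 and -0.68 in group 2. With 1 mutant and 1 control per group, the difference between the groups was not tested.

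**Figure D4:**
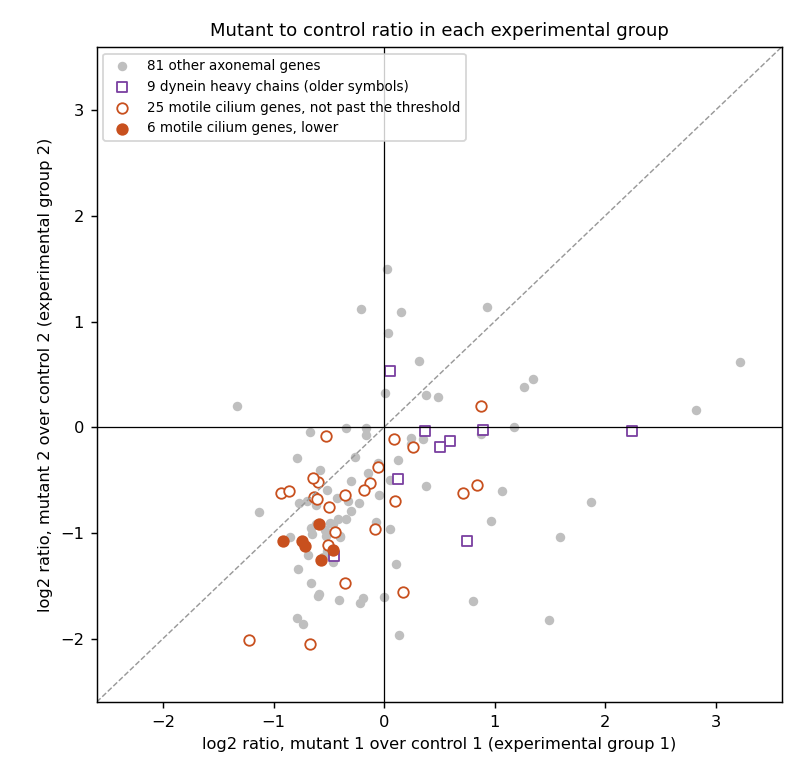
Log2 ratio of mutant over control in experimental group 1 (x axis) and group 2 (y axis) for the 31 motile cilium genes (circles, filled if past the threshold), 9 dynein heavy chains (squares) and 81 other axonemal genes (grey). All 6 filled points lie below 0 on both axes, and 7 of the 9 squares lie on opposite sides of 0.

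Of the 13 listed genes found under an older symbol, 2 fell (15.4%, where 4.30% of all tested genes fell) and 0 rose (1.28% of all tested genes). Dnah11 (row Dnahc11), an outer arm heavy chain, had 82.9 and 103 CPM in the controls and 64.6 and 44.6 in the mutants, with no overlap (log2 fold change -0.83, SE 0.20, adjusted p = 0.0017). Drc1 (row Ccdc164), a nexin link gene, had 68.2 and 40.4 CPM in the controls and 55.1 and 20.2 in the mutants (log2 fold change -0.70, SE 0.20, adjusted p = 0.0137). The call for Drc1 was lost with the quasi-likelihood test (adjusted p = 0.0687) and with DESeq2 (adjusted p = 0.0921). Pifo, which had the highest level per length of all listed genes (59.6 CPM per kb), was at -0.44 (SE 0.16, adjusted p = 0.0983). Dnaaf1 (row Lrrc50), an arm assembly factor, had 10.2 and 6.73 CPM in the controls and 7.40 and 2.16 in the mutants (log2 fold change -1.07, SE 0.51, adjusted p = 0.274). Mcidas (row Gm6320), which starts the multiciliated programme, had 0 counts in control 1 and 31, 44 and 22 in control 2, mutant 1 and mutant 2. A count of 0 allows up to 0.127 CPM there.

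Dynein heavy chains are the motors of the arms. Of 9 heavy chain genes, 1 fell (11.1%, where 4.30% of all tested genes fell), 6 had a positive log2 fold change, and the median was 0.18. Their ratio had a median of 0.50 in group 1 and -0.13 in group 2. Dnah5, an outer arm motor, had 58.6 and 40.4 CPM in the controls and 81.0 and 39.9 in the mutants (log2 fold change 0.18, SE 0.18). The rest lay at -0.18 for Dnah9, 0.29 for Dnah1, 0.25 for Dnah2, 0.45 for Dnah6, -0.15 for Dnah7a and 0.17 for Dnah10, and none of these passed the threshold. Heavy chain genes are long and sparsely read, at 0.22 to 5.10 CPM per kb, and the background of mutant 1 would make up 3.09 to 48.9% of their mutant 1 counts. After it was subtracted, their median was 0.20. Dnah7b, with the largest share, went from 1.12 to 0.68. The part of that background in the result beyond this subtraction was not tested.

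Other axonemal genes were listed apart from the 46. Of 81 tested, 17 fell (21.0%, compared with 4.30% of all tested genes), 0 rose, and the median log2 fold change was -0.51. The count was 12 with the quasi-likelihood test and 12 with DESeq2. Without the term for experimental group 0 of the 81 passed. The lowest adjusted p belonged to Vwa3a (113 and 84.2 CPM in the controls, 69.8 and 24.4 in the mutants, log2 fold change -1.29, SE 0.22). The central pair genes Spef2, Cfap69 (row A330021E22Rik), Kif9 and Spef1 fell by 1.08, 1.09, 0.90 and 0.80 on the log2 scale. They were named for their small p, and other central pair genes such as Cfap54 (row Gm872, -0.41, SE 0.84) and Cfap46 (row E030019B06Rik, -1.01, SE 1.16) did not pass. Among the rest, Efcab10 (-1.04), the spoke genes Dnajb13 (-1.004) and Cfap206 (row 1700003M02Rik, -0.70), the nexin link gene Lrrc48 (-0.83), the inner doublet protein Enkur (-0.95), Ccdc96 (-0.98) and Kif27 (-0.78) fell. The call for Dnajb13 was lost with the quasi-likelihood test (adjusted p = 0.0644) and that for Kif27 with DESeq2 (adjusted p = 0.0555). Over the 81 genes, 59 fold changes were negative and 22 positive, where 51.1% of all tested genes were negative. Both mutants lay below both controls for 21 genes (10.6% of all tested genes) and above both for 9 (15.2%).

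A further list mixed genes that start the multiciliated programme or multiply basal bodies with further Rfx, E2f and centrin genes and general centriole genes. Many of these are not particular to multiciliated cells. No gene of this list passed the threshold. Of 23 tested, 0 fell and 0 rose, where 4.30% of all tested genes fell and 1.28% rose. In a list of 23, 0 calls lie near those shares and do not set these genes apart. At an unadjusted p under 0.05, 0 were lower and 2 higher, and the median was 0.05. For genes of few counts, a level that was kept is not shown. The quasi-likelihood test and DESeq2 gave 0 calls as well, DESeq2 leaving 11 of the 23 without an adjusted p. Gmnc (row Gm606), which acts with Mcidas at the top of the programme, had 2.07 and 3.79 CPM in the controls and 1.49 and 4.31 in the mutants. Ccdc67 (Deup1), a part of the structure that builds many basal bodies at once, had 1.60 and 6.17 CPM in the controls and 2.17 and 8.70 in the mutants. Ccno, a cyclin-like factor of multiciliated cells, had 10.1 and 7.25 in the controls and 8.49 and 6.74 in the mutants. Per exon length, Gmnc (0.51 CPM per kb), Mcidas (0.52), Ccdc67 (1.41) and Ccno (3.19) were below Foxj1 (42.6) and within the range of the axonemal genes. Which cells carried the transcripts cannot be told from sorted bulk samples.

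Marker lists of other cells were read in the same way. Over all tested genes, 4.30% fell and 1.28% rose in the mutants, and 14.0% were lower and 17.7% higher in experimental group 2. Of 19 genes of mature olfactory sensory neurons, 18 fell, with a median log2 fold change of -1.29, and their summed level was 23804 and 10922 CPM in the controls and 13893 and 3399 in the mutants. The olfactory marker Omp had 9434, 3207, 5580 and 907 CPM in control 1, control 2, mutant 1 and mutant 2. The 6 motile cilium genes that fell had the same order of samples. They were picked for being lower in the mutants, and each was also lower in experimental group 2, which favours this order. The share of all genes in this order was not counted, so no link to neurons is drawn from it. Of these 19, 16 were also lower in experimental group 2. The genes listed as airway secretory are not all particular to the neighbouring respiratory epithelium. Of 12 tested, 0 were lower and 1 was higher (Muc5ac) in the mutants, and 10 were higher in group 2. Their summed level was 15477 and 71767 CPM in the controls and 16860 and 74189 in the mutants. Most of it was Bpifa1, and Scgb1a1, a club cell marker, was at 0 counts in all 4 samples. The sum is therefore no measure of respiratory cell content. Of 18 immature neuron genes 3 fell, of 13 horizontal basal genes 2 rose, and of 13 sustentacular and 18 leukocyte genes 0 passed the threshold for genotype. In lists this short, 0 calls lie near the shares over all tested genes and do not set a list apart. In experimental group 2, 9 of the sustentacular genes were higher, and of the leukocyte genes 7 were lower and 1 was higher. Summed leukocyte markers were 788 and 260 CPM in the controls and 354 and 460 in the mutants. Among 16 spermatid genes, which share axonemal parts, 14 were too low to test and Prm2, Prm3 and Smcp were at 0. The part of a change in neuron content in the decrease of the motile cilium genes was not tested.

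**Figure D5:**
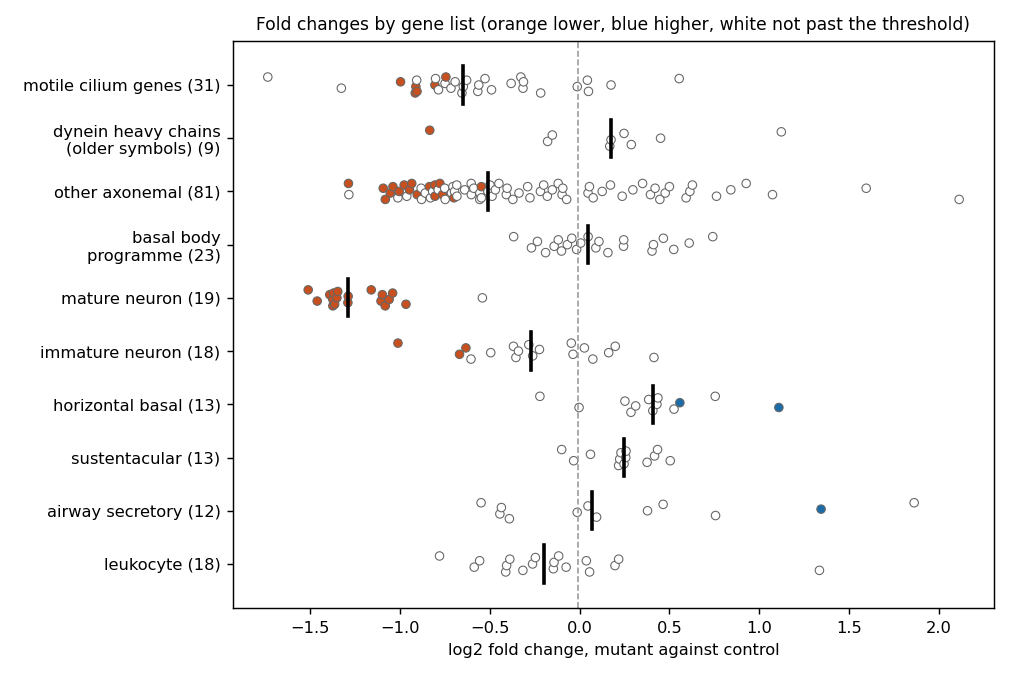
Log2 fold change of mutant against control for each tested gene (points) of 10 gene lists, with the number of genes in brackets, the list median as a thick line and the median of all tested genes as a dashed line. The motile cilium genes (median -0.65) lie between mature neuron genes (-1.29) and the mixed list of basal body and related genes (0.05).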

How the data were processed

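The authors deposited unnormalized counts for each gene symbol, obtained with HTSeq (intersection-nonempty) after rRNA depletion, removal of rRNA reads with Bowtie2 2.0.6, quality filtering and alignment with TopHat2 2.0.7 to mm10, versions per the submitters' processing notes. Reads aligned more than once were set aside. The strand setting is not given in the sources used here, so genes that overlap on opposite strands share uncertain counts. Tally lines (43.1 to 77.7% of the summed lines) were left out.

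Genes above 1 CPM in at least 2 samples were fitted in edgeR 4.0.16 (R 4.3.3) with TMM factors, genotype and experimental group, as in the study's methods, and tested by likelihood ratio. p-values were adjusted over all tested genes by the Benjamini-Hochberg method (threshold 0.05). The fit leaves 1 residual degree of freedom. SEs are Wald errors. Ratios within a group use log2 CPM after adding a prior count of 2 and have no test. Levels per kb use GENCODE exon lengths of the same build. At a count of 0, up to 3 counts are allowed, which covers counting error only. The model was also run on simulated data with the same spread for every gene and no mutant 1 background. That run does not check the calls made here.

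Same-numbered samples are littermates per the study's methods, and their deviations from the genotype means correlated at r = 0.522 across 15438 genes, which are not independent. No pair of libraries agreed within sampling noise. Members and lists were chosen with earlier results of these data known. Named were the regulators, genes past the threshold in the fit or any alternative with the block, the highest of each role, the 3 highest and lowest fold changes and genes at 0, and up to 12 related genes by p. Other genes named for no overlap, level, overlapping strands or marker role were chosen after their values were seen. Alternatives were the quasi-likelihood test, DESeq2 1.42.0, no block, RLE factors, 2 other filters, thinning, background subtraction and leaving out samples. A pooled form of that background, used in the text, was chosen after seeing the data.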

Additional observations from a re-analysis of the deposited data

Results flagged for a closer look

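For 3 named genes the mutant moved in opposite directions in the experimental groups, with 1 mutant and 1 control in each. Wdr78 had a log2 ratio of 0.71 in group 1 and -0.62 in group 2, Spag17 of 0.84 and -0.55, and Hydin of 0.0864 and -0.116. The difference between the groups was not tested. Outside the gene counts, 39.4% of the reads that aligned once in mutant 1 fell in no annotated gene, above the 23.8% of control 1 and 24.9% of control 2. Its part in the results beyond the background subtraction was not tested.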

How the results depend on the processing

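The count of motile cilium genes that fell (6) was 5 to 7 under the 8 alternatives that kept the term for experimental group, and 0 rose in each. DESeq2 gave 5, leaving 16 of the 31 without an adjusted p. Without the replicate block, the count was 0 for the motile cilium genes, 0 (against 17) for related axonemal genes, 0 (against 664) for all genes lower and 6 (against 197) for all genes higher, and the quasi-likelihood test gave 117 higher genes. Leaving out 1 sample at a time allowed genotype alone as a term, since the block leaves no residual spread, and an arm with 1 sample was assumed to vary like the other. The counts were then 0 to 0 for motile cilium genes, 0 to 0 for related axonemal genes, 1 to 6 for all genes lower and 5 to 25 for all genes higher (24 without control 1, 22 without mutant 2). The median log2 fold change of the 31 genes ranged from -0.97 to -0.22 when 1 sample or pair was left out: -0.97 without mutant 1, -0.29 without control 1, -0.22 without mutant 2 and -0.50 and -0.68 with the pair of group 1 or group 2 alone. Leaving out 1 sample turned the direction of Rsph9 (range -1.97 to 0.0288) and Tekt1 (-1.98 to 0.39, with 0.049 without mutant 2). It also turned Tekt4 (highest 0.10), Tppp3 (0.18 and 0.34), Hydin (0.14 and 0.25), Spag17 (-0.82) and Wdr78 (-0.29 and -0.30). Such a fit leaves 1 mouse without its littermate, so genotype is mixed with experimental group in it. Within the pairs, Rsph9 (log2 ratios -0.72 and -1.12), Tekt1 (-0.59 and -0.92), Tekt4 and Tppp3 were lower in the mutant in both groups. Hydin, Spag17 and Wdr78 went opposite ways in the pairs. Hydin was also at 0.0127 with no filter on low counts. Why these calls depend on the block was not tested. Depth limits genes of few counts, such as Tekt3 and Spag17.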
